A study of Mus musculus with 4 samples.

Results

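Complement is a cascade of plasma and tissue proteins that marks microbes, dead cells and immune complexes for removal. The 9 genes described here encode components of this cascade, and their RNA was measured, not their protein. C1qa, C1qb and C1qc encode the chains of the recognition molecule C1q. C1ra and C1s1 encode the proteases that C1q activates. C4b and C3 encode the thioester proteins that become bound to surfaces. Cfb encodes the protease subunit of the alternative pathway. Serping1 encodes the C1 inhibitor, which blocks C1r and C1s. The 9 genes were chosen by name from 32286 genes in each features list, and all 9 were found. Their levels are given in fibroblast-like, muscle-like, pericyte-like, endothelial, Schwann-like and macrophage-like cells of mouse popliteal vessels, the collecting lymphatics and blood vessels behind the knee.

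The data were single-cell counts of unique molecular identifiers (UMIs), each of which stands for 1 captured RNA molecule, read from the 3′ end of transcripts. Adult mice of 1 strain gave all libraries: WT1GFPCre crossed with Ai9-tdT, in which a Cre recombinase driven from Wt1 switches on a tdTomato reporter, and all had received Evans blue in the footpad. The popliteal lymphatic vessel (PLV) libraries numbered 2, each from its own pool of 2 mice, digested for 30 minutes with collagenase I, dispase II, DNAse and Liberase. The third library, called the mixed library here, held PLV and blood vessel (BV) cells of 1 pool of 2 mice, digested for 60 minutes with collagenase I and dispase II alone. Vessel, digestion, mice and the processing version therefore differ together between the PLV and mixed libraries and cannot be told apart in their comparison; the hashtags of the mixed cells were not used here. The labels give no age beyond adult, and pooling means that no value belongs to a single mouse.

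Filtering left 1909, 516 and 994 cells with 9577642, 3390010 and 7770796 UMIs. These and all later sets of 3 values are in the order PLV replicate 1, PLV replicate 2, mixed library. No cell barcode was shared between libraries. Clusters were named "X-like" from marker genes, with the complement genes kept out of the clustering. The 7 fibroblast markers summed to 36892 CPM or more in the fibroblast-like cells of each library and to 4928 CPM or less in the muscle-like cells. Levels are CPM, the UMIs of a gene for each 1000000 UMIs of the cells of a class in a library, with a 95% exact Poisson interval that covers counting error only. Differences between libraries larger than these intervals are common below, and the tests use the spread between libraries.

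In the classical pathway, C1q binds antibody or other ligands, C1r cleaves C1s, and C1s cleaves C4 and C2 to build the enzyme that cleaves C3. In the alternative pathway, factor B joins a C3 fragment to make a second C3-cleaving enzyme, so C3 belongs to both. Most plasma complement comes from the liver. C1q is a known exception, made by macrophages and other myeloid cells, and fibroblasts are a known local source of C3, C1r, C1s and C1 inhibitor.

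By the RefSeq annotation of GRCm38.p6, the build named in the submitters' processing notes being GRCm38, the C1q chains lie beside each other on chromosome 4. C1qb (ENSMUSG00000036905) spans positions 136880126 to 136886200, C1qc (ENSMUSG00000036896) 136889801 to 136892936 and C1qa (ENSMUSG00000036887) 136895916 to 136898844. C1ra (ENSMUSG00000055172, 124512621 to 124523440) and C1s1 (ENSMUSG00000038521, 124530344 to 124542392) are neighbours on chromosome 6. On chromosome 17 lie C4b (ENSMUSG00000073418, 34728139 to 34743902), Cfb (ENSMUSG00000090231, 34856374 to 34862514) and C3 (ENSMUSG00000024164, 57203967 to 57228136). Serping1 (ENSMUSG00000023224) spans 84765360 to 84775444 on chromosome 2.

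Promoter windows from RefSeq (GRCm38.p6) were available here for 5 of the 9 genes. Of these, C1qb and C1qc are printed because they were detected together in macrophage-like cells and in almost no other cell, and C3 because it was the member most concentrated in fibroblast-like cells. Each run is the 250 bases before the start that the promoter table uses, 5′ to 3′ on the minus strand, where all 3 genes lie. For C1qc that start lies inside the gene span given above, so its window overlaps the span, and motif distances are counted from the table's start. Capitals mark matches to any of 5 motifs searched on both strands: PU.1 (GAGGAAGT), C/EBP (TTNNGCAA), GAS (TTCNNNGAA), NF-kB (GGGA and CC with any 4 bases between) and the interferon-stimulated response element (GAAA at both ends with any 2 bases between).
C1qb, chr4:136886201-136886450: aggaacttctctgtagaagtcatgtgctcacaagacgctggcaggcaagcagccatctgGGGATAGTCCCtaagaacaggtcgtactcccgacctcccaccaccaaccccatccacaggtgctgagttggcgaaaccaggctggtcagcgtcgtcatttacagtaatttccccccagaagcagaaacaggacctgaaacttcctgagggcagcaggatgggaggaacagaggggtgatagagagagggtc
C1qc, chr4:136892915-136893164: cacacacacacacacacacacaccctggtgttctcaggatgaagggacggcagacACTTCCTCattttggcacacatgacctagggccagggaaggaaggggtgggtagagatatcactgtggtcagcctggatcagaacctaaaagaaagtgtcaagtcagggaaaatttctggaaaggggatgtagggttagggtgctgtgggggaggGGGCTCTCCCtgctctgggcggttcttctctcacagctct
C3, chr17:57228137-57228386: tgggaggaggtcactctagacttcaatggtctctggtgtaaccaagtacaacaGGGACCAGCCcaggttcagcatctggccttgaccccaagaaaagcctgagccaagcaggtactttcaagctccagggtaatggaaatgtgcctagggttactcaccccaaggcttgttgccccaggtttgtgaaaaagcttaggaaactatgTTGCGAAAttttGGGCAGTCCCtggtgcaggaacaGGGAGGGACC
The C1qc window held 1 PU.1 match, from 195 to 188 bases before the start, and 1 NF-kB match from 40 to 31 bases before it. PU.1 is a transcription factor of macrophages and other blood cells, and its 8 letters occur in 2.44% of 32851 RefSeq promoter windows of this length. The C1qb window held 2 overlapping NF-kB matches, offset by 1 base, on opposite strands. The C3 window held 1 C/EBP match, from 45 to 38 bases before the start, and 3 NF-kB matches, the nearest of which ended at the start itself. The NF-kB letters occur in 17.6% of all windows and the C/EBP letters in 9.56%. A match is only a run of letters, and binding was not measured.

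C1q RNA was found in the macrophage-like cells and scarcely elsewhere. The macrophage-like clusters of the finer clustering held 45, 32 and 29 cells. C1qa stood there at 3454, 799 and 1274 CPM. C1qb stood at 2263, 459 and 1251 CPM. C1qc stood at 1866, 449.9 and 771 CPM. The 3 chains were highest in PLV replicate 1 and lowest in PLV replicate 2, and all 3 moved in the same order across libraries. Macrophage-like cells made up 2.36% of the cells of PLV replicate 1 and held 96.5% of its C1qa UMIs, 95.03% of its C1qb UMIs and 96.4% of its C1qc UMIs. A further 9 C1qa, 13 C1qb and 3 C1qc UMIs of that library lay in 41 neutrophil-like cells, which clustered with the macrophage-like cells at the coarser clustering. In the other libraries the macrophage-like share was at least 97.1% for each chain.

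The libraries differed in how many macrophage-like cells carried C1q. All 3 chains were detected in 37 of 45, 8 of 32 and 11 of 29 macrophage-like cells. No chain was detected in 0, 24 and 17 cells respectively. Detection was therefore nearly all-or-none in PLV replicate 2, where 8 cells had every chain and no cell had just 1 or 2. Markers of other leukocytes also differed between these clusters. The 5 neutrophil markers summed to 34.8 CPM in PLV replicate 1 with 4 of 5 at 0, to 1106 CPM in PLV replicate 2 with none at 0, and to 377 CPM in the mixed library with none at 0. The 5 B-cell markers summed to 13.9, 482 and 131 CPM with 4, 0 and 1 of them at 0, and the 7 T and NK markers were all at 0 in PLV replicate 1 and the mixed library but summed to 454 CPM in PLV replicate 2. The 7 dendritic markers summed to 606, 555 and 411 CPM. The part of these other cells in the C1q levels was not tested.

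In the fibroblast-like, muscle-like, pericyte-like, endothelial and Schwann-like classes each C1q chain was at 4.23 CPM or less in every library. Over all fibroblast-like cells of the 3 libraries there was 1 C1qa UMI, 1 C1qb UMI and 2 C1qc UMIs among 4402241 UMIs. The pooled ratio of macrophage-like to fibroblast-like C1qa was 7327 with a 95% counting interval of 1312 to 289713. For C1qb the ratio was 5284 (945 to 209020) and for C1qc it was 2055 (566 to 17018). Muscle-like cells held no C1qb UMI, which put macrophage-like cells at least 2178-fold higher, taking 3 UMIs over the group as the floor. In lymphatic endothelial-like cells C1qa and C1qc were not detected, for bounds of at least 2247-fold and at least 1260.4-fold.

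The C1q-activated proteases had the opposite distribution. C1ra, whose product cleaves C1s, stood at 457, 554 and 289 CPM in fibroblast-like cells. Pericyte-like cells held 136, 139 and 106 CPM and muscle-like cells 57.0, 49.8 and 64.4 CPM. Perineurial-like cells, the sheath of nerves, were found in PLV replicate 1 and the mixed library and held 38.1 and 140.1 CPM. Blood endothelial-like cells stood at 34.3, 17.5 and 35.5 CPM and lymphatic endothelial-like cells at 26.7, 17.1 and 16.9 CPM. The fibroblast-like, pericyte-like and muscle-like levels did not overlap over the libraries, while the 2 endothelial classes and the Schwann-like cells (14.8, 19.2 and 16.4 CPM) did.

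C1s1 was high in more of the wall. It stood at 1013, 1201 and 364 CPM in fibroblast-like cells and at 1022, 916 and 489 CPM in pericyte-like cells. These 2 classes overlapped, with means of 859 ± 439 and 809 ± 282 CPM (SD, n = 3 libraries). Muscle-like cells held 391, 333 and 226 CPM and blood endothelial-like cells 132, 73.0 and 66.6 CPM. Lymphatic endothelial-like cells lay far lower, at 18.8, 3.21 and 4.83 CPM. No C1s1 UMI was seen in any macrophage-like cell, which put fibroblast-like cells at least 129-fold higher and muscle-like cells at least 55.1-fold higher. The mixed library was the lowest of the 3 for C1s1 in fibroblast-like, pericyte-like, muscle-like and blood endothelial-like cells.

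C4b and C3 are the proteins whose fragments attach to surfaces. C4b, the C4 protein that C1s cleaves, stood at 460.5, 959.5 and 207 CPM in fibroblast-like cells. It was also present in macrophage-like cells at 619.7, 151 and 126 CPM and in Schwann-like cells at 116, 218 and 369.6 CPM. These 3 classes overlapped. In muscle-like cells C4b was at 9.58 CPM or less in each library, in blood endothelial-like cells at 6.48 CPM or less, and in lymphatic endothelial-like cells at 3.50 CPM or less. Schwann-like cells, the glia of nerves beside the vessels, held Cfb at 0, 12.8 and 8.21 CPM and Serping1 at 38.0, 44.8 and 41.1 CPM. When cells were limited to at least 1000 UMIs, mean Serping1 in Schwann-like cells was 200.5 ± 279 CPM in place of 41.3 ± 3.39, mean C1s1 was 53.5 ± 82.9 in place of 9.72 ± 5.81 CPM, and mean C1ra was 30.4 ± 23.6 in place of 16.8 ± 2.23 CPM (SD, n = 3 libraries).

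C3, the central protein of the cascade, was the most restricted stromal gene. Fibroblast-like cells held 3149, 4228 and 539 CPM, with the mixed library lowest. They were 20.2%, 16.9% and 27.8% of the cells and held 98.6%, 99.3% and 96.4% of all C3 UMIs in these libraries. Every other class found in all 3 libraries was at 51.4 CPM or less in each of them. Blood endothelial-like cells stood at 2.59, 1.59 and 1.90 CPM and lymphatic endothelial-like cells at 2.63, 1.07 and 0 CPM. The keratinocyte-like cluster found in PLV replicate 1 alone had 143 CPM (106 to 189.8).

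Cfb set the endothelium apart from muscle. Factor B carries the protease of the alternative pathway. It stood at 185, 326 and 128 CPM in fibroblast-like cells, at 77.4, 90.9 and 57.9 CPM in lymphatic endothelial-like cells and at 49.3, 38.1 and 49.5 CPM in blood endothelial-like cells. In muscle-like cells it was at 1.82, 6.38 and 1.62 CPM. Macrophage-like cells, with 97.5, 50.5 and 45.7 CPM, overlapped both endothelial classes, and pericyte-like cells held 11.3, 8.18 and 10.9 CPM.

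Serping1 was detected in each of the stromal and endothelial classes in every library. Its product, the C1 inhibitor, also restrains plasma kallikrein and so limits the release of bradykinin, a peptide that makes vessels leak. Fibroblast-like cells held 1573, 1884 and 2251 CPM, pericyte-like cells 819, 826 and 776 CPM and muscle-like cells 295, 285 and 353 CPM. Lymphatic endothelial-like cells stood at 157, 188 and 163 CPM and blood endothelial-like cells at 118, 49.2 and 117 CPM. None of these 5 classes overlapped another in any library. The perineurial-like cells of PLV replicate 1 and of the mixed library held 1370.2 and 1523 CPM. Macrophage-like cells held 2 Serping1 UMIs in all, in 1 library.

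**Figure D1:**
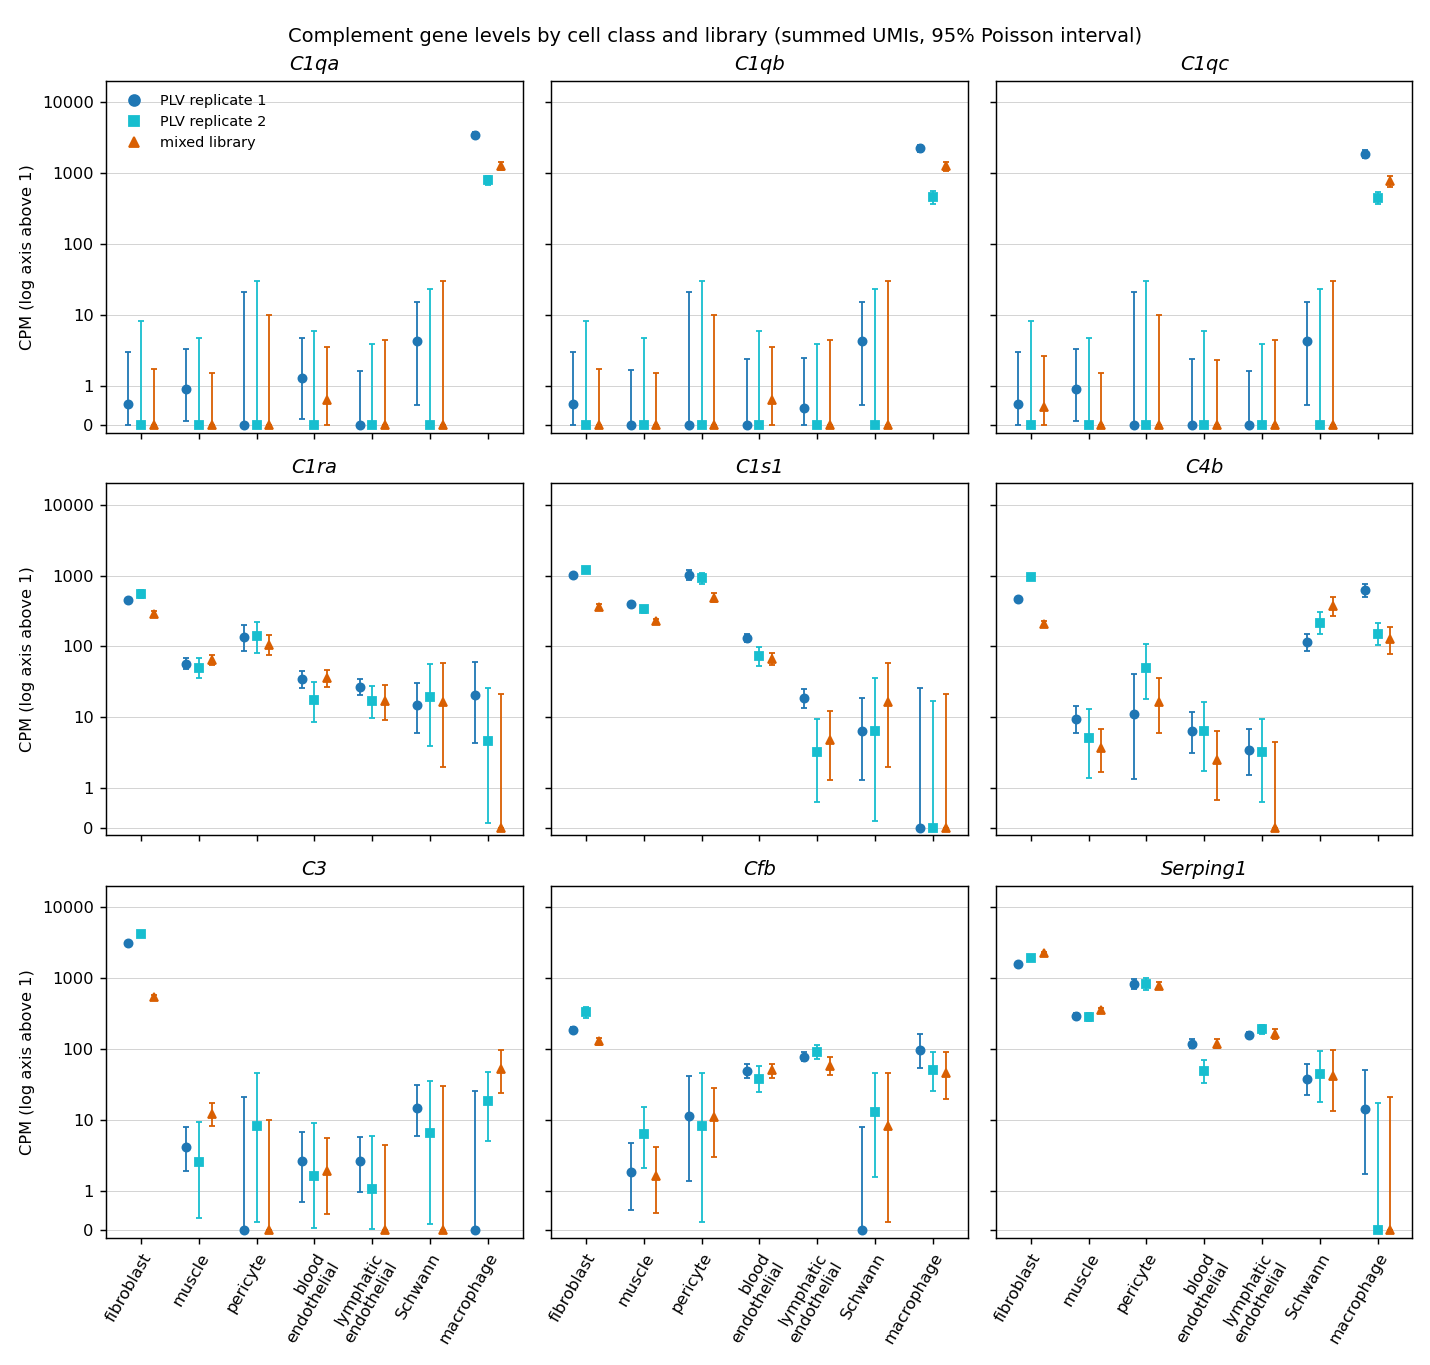
Level of each of the 9 genes in 7 cell classes (x axis), in CPM on a y axis that is logarithmic above 1. Each point is 1 library, with its 95% Poisson interval. C1qa, C1qb and C1qc stand at 449.9 CPM or more in macrophage-like cells and near 0 elsewhere, C3 at 539 CPM or more in fibroblast-like cells and at 51.4 CPM or less elsewhere, and Serping1 descends from fibroblast-like to pericyte-like, muscle-like and endothelial cells.

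The same classes were compared on sums of UMIs per library with edgeR's quasi-likelihood test, with the library as a block and Benjamini-Hochberg adjustment over all genes tested. In these class comparisons the p-values measure the spread between the libraries of each fit. The filter on low counts removed the C1q chains from every comparison without macrophages, so that at most 6 of the 9 genes were tested there. All 6 were higher in fibroblast-like than in muscle-like cells, where 16.6% of all 10313 genes tested were called higher. The log2 differences were 8.21 for C3 (SE 0.93, adjusted p = 0.000859), 6.33 for Cfb (SE 0.29, adjusted p = 4.98e-05) and 6.28 for C4b (SE 0.39, adjusted p = 0.000105). They were smaller for C1ra, at 3.02 (SE 0.26), Serping1, at 2.77 (SE 0.22), and C1s1, at 1.47 (SE 0.24, adjusted p = 0.00389). The filter keeps a gene with enough UMIs in 3 sums, so a gene that is high in 1 class is tested however few UMIs the other class holds. C3, C4b and Cfb, with 41, 34 and 13 UMIs over all muscle-like cells, would not have passed on those cells, so the direction of their calls was fixed by the filter and their values and the count of 6 are descriptions. With no filter, all 9 members were tested, 6 were higher, and the median over the 9 was 2.75 against -0.01 over all genes. The 9 genes were chosen with earlier results of these data known, so that count and median are descriptions. Without PLV replicate 2 the C1s1 call was lost (log2 difference 1.22, adjusted p = 0.0604).

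Against blood endothelial-like cells all 6 tested genes were again higher in fibroblast-like cells, where 17.1% of 10002 genes were called higher. C3 and C4b, with 8 and 18 UMIs in the blood endothelial-like cells, passed the filter through the fibroblast-like cells alone. The log2 difference was 10.08 for C3 (SE 0.43) and smallest for Cfb, at 2.32 (SE 0.30, adjusted p = 0.000331). Against lymphatic endothelial-like cells all 6 were higher, with 17.6% of 9681 genes called higher. C3, C4b and C1s1, with 7, 11 and 50 UMIs in the lymphatic endothelial-like cells, passed through the fibroblast-like cells alone. The direction of these calls, and of the C3 and C4b calls against blood endothelial-like cells, was fixed by the filter. Those calls and both counts of 6 are descriptions. C3 differed by 10.92 (SE 0.48), C1s1 by 6.79 (SE 0.49) and Cfb by 1.71 (SE 0.25, adjusted p = 0.000321). In every library each of the 6 genes was higher in fibroblast-like cells than in muscle-like, blood endothelial-like and lymphatic endothelial-like cells. With no filter the medians over all 9 members were 3.35 and 3.74, against -0.02 and 0.06 over all genes. These medians too are descriptions, as the 9 genes were chosen with earlier results of these data known.

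The endothelial classes differed from each other in 3 of 4 tested members, where 26.8% of 9297 genes were called in either direction. C1s1 was lower in lymphatic than in blood endothelial-like cells, with a log2 difference of -3.20 (SE 0.25, adjusted p = 9e-07), and it was lower in all 3 libraries. With 50 UMIs over all lymphatic endothelial-like cells, C1s1 passed the filter through the blood endothelial-like cells alone. The direction of its call was thus fixed by the filter, and that call and the count of 3 are descriptions. Cfb was higher in the lymphatic cells by 0.64 (SE 0.18, adjusted p = 0.0198) and Serping1 by 0.78 (SE 0.22, adjusted p = 0.0188), both in all 3 libraries. These 2 smaller differences did not pass with DESeq2 (adjusted p = 0.229 and 0.0652), without the library block (0.0537 and 0.0963) or without PLV replicate 2 (0.131 and 0.0861), and Cfb did not pass without PLV replicate 1 (0.134). C1ra did not pass in the main test (-0.53, SE 0.25, adjusted p = 0.148).

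Macrophage-like and fibroblast-like cells differed in most members. All 9 genes were tested, and 8 differed, 3 higher and 5 lower in macrophage-like cells, where 35.4% of 4786 genes were called in either direction, 15.7% higher and 19.7% lower. The C1q chains passed the filter on low counts through the macrophage-like cells alone, so that their higher calls add nothing to the pooled ratios given above. C1ra, C1s1, C3, Cfb and Serping1 were lower. Of these, C1ra, C1s1, C3 and Serping1 had 4, 0, 13 and 2 UMIs over all macrophage-like cells. They passed the filter through the fibroblast-like cells alone, so the direction of their calls was fixed by the filter. Their calls and the counts of 8, 3 and 5 are descriptions. The pooled fibroblast-like to macrophage-like ratio was 518 for Serping1 (95% counting interval 143 to 4276), 82.8 for C3 (48.4 to 156), 51.8 for C1ra (20.2 to 190.3) and 2.79 for Cfb (1.97 to 4.09). C4b had a log2 difference of -1.22 (SE 0.55, adjusted p = 0.105); the alternatives gave -2.13 without PLV replicate 1 (adjusted p = 0.000622), -1.31 with no filter on low counts (adjusted p = 0.0124) and -1.24 with at least 1000 UMIs per cell (adjusted p = 0.0481). With predicted doublets kept, PLV replicate 2 had no macrophage-like cluster, and in the fit of the other 2 libraries Cfb did not pass (adjusted p = 0.054).

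**Figure D2:**
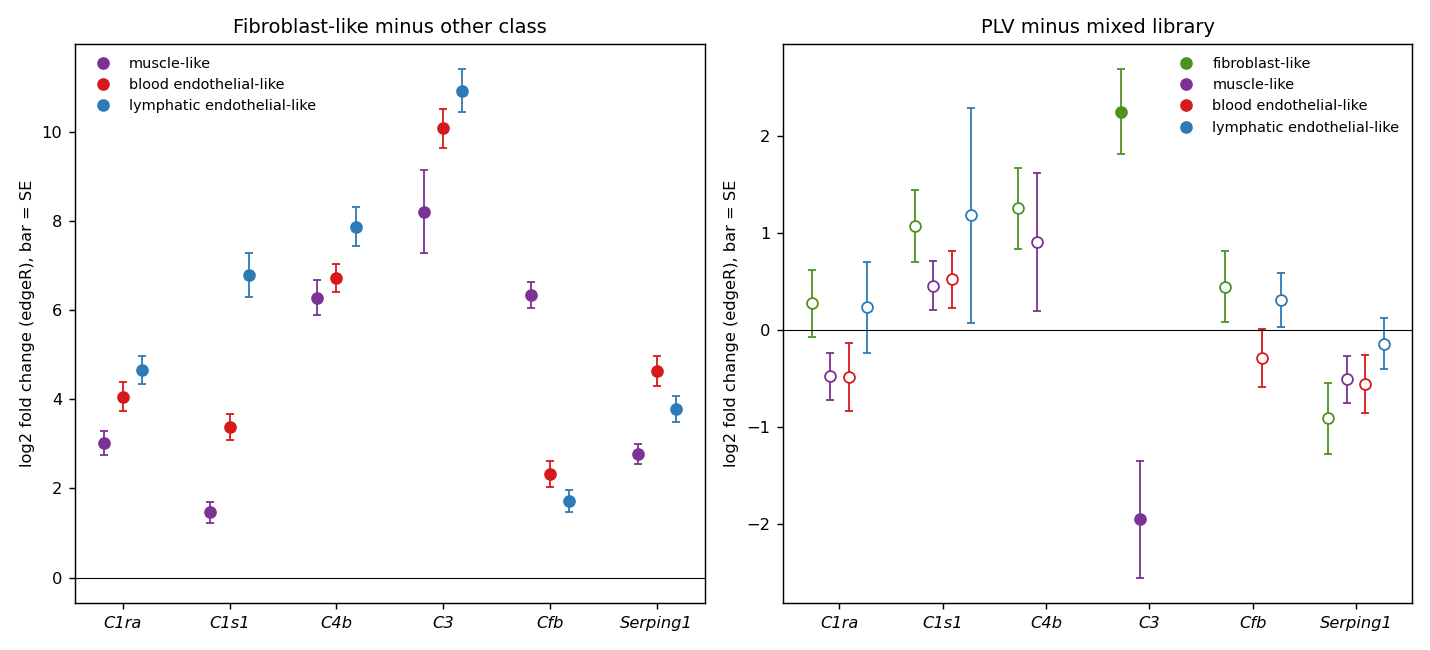
Log2 differences from edgeR with their standard errors for the 6 members other than the C1q chains (x axis). A member without a point did not pass the filter in that comparison. The left panel sets fibroblast-like cells against 3 other classes and the right panel the PLV libraries against the mixed library within a class; filled points have an adjusted p under 0.05. All points on the left lie above 0 and are filled. On the right only C3 in fibroblast-like cells (2.24) and in muscle-like cells (-1.95) is filled. The filter fixed the direction of the muscle-like C3 point. On the left it fixed that of C3 and C4b throughout, of Cfb against muscle-like and of C1s1 against lymphatic endothelial-like cells.

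Within the fibroblast-like cells the initiating and inhibiting genes were general, and C3, C4b and Cfb were not. At the finer clustering, marker lists named 3 types: a Pi16 type (121, 26 and 42 cells), a Cxcl14 and Scara5 type (53, 42 and 72 cells) and, in the mixed library alone, a Col4a4 and Itgbl1 type (132 cells). Pi16 marks fibroblasts of the outer vessel coat. Serping1 ranged from 963 CPM in the Pi16 type of PLV replicate 1 to 2568 CPM in the Col4a4 and Itgbl1 type, and C1ra from 216 to 787 CPM over these 7 sets of cells. C3 stood at 4156, 5254 and 771 CPM in the Pi16 type and at 3103, 4798 and 1204 CPM in the Cxcl14 and Scara5 type.

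The Col4a4 and Itgbl1 type, which held 132 of the fibroblast-like cells of the mixed library, had almost no C3 or C4b. Its C3 level was 5.31 CPM (1.73 to 12.4), from 5 UMIs, and its C4b level was 6.38 CPM (2.34 to 13.9), from 6 UMIs. In the same library the Cxcl14 and Scara5 type was 227-fold higher for C3 (95% counting interval 96.7 to 700.3) and 96.4-fold higher for C4b (43.9 to 264). Cfb stood at 63.8 CPM in the Col4a4 and Itgbl1 type against 222 CPM in the Cxcl14 and Scara5 type. C1s1, at 328 against 466 CPM, and Serping1, at 2568 against 2145 CPM, were closer. This type was found in 1 library, so no test over libraries was possible.

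Clusters led by Apod in the PLV libraries were low for the same genes. They held 41 cells in PLV replicate 1 and 14 in PLV replicate 2. Their C3 levels were 133 CPM (68.6 to 232) and 120.5 CPM (39.1 to 281), and no C4b or Cfb UMI was seen in either. C1s1 and Serping1 were at 916 CPM or more in both. By contrast the Inmt-led cluster of PLV replicate 1 (81 cells) held 3375 CPM of C3 and the Myoc-led cluster (72 cells) 1960.0 CPM.

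C4b varied most between the 2 types found in every library. It stood at 71.4, 862 and 83.4 CPM in the Pi16 type and at 951, 1427 and 614 CPM in the Cxcl14 and Scara5 type. The Pi16 type was lower in each library, and its level in PLV replicate 2, from 26 cells, overlapped the other type. At the coarser clustering of the main test, which held PLV replicate 1 and the mixed library, 0 of 6 members passed, where 0.101% of 6920 genes were called (7 genes), and 2 members had an unadjusted p under 0.05. C4b had a log2 difference of -3.32 (SE 0.42, adjusted p = 0.0719) and Cfb of -1.03 (SE 0.34, adjusted p = 0.445). C4b passed with DESeq2 (-3.31, adjusted p = 7.18e-07), with no filter on low counts (-3.34, adjusted p = 1.44e-14) and at the finer clustering with all 3 libraries (-2.42, adjusted p = 0.0290). C3 differed by -0.04 (SE 0.37, adjusted p = 0.997).

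**Figure D3:**
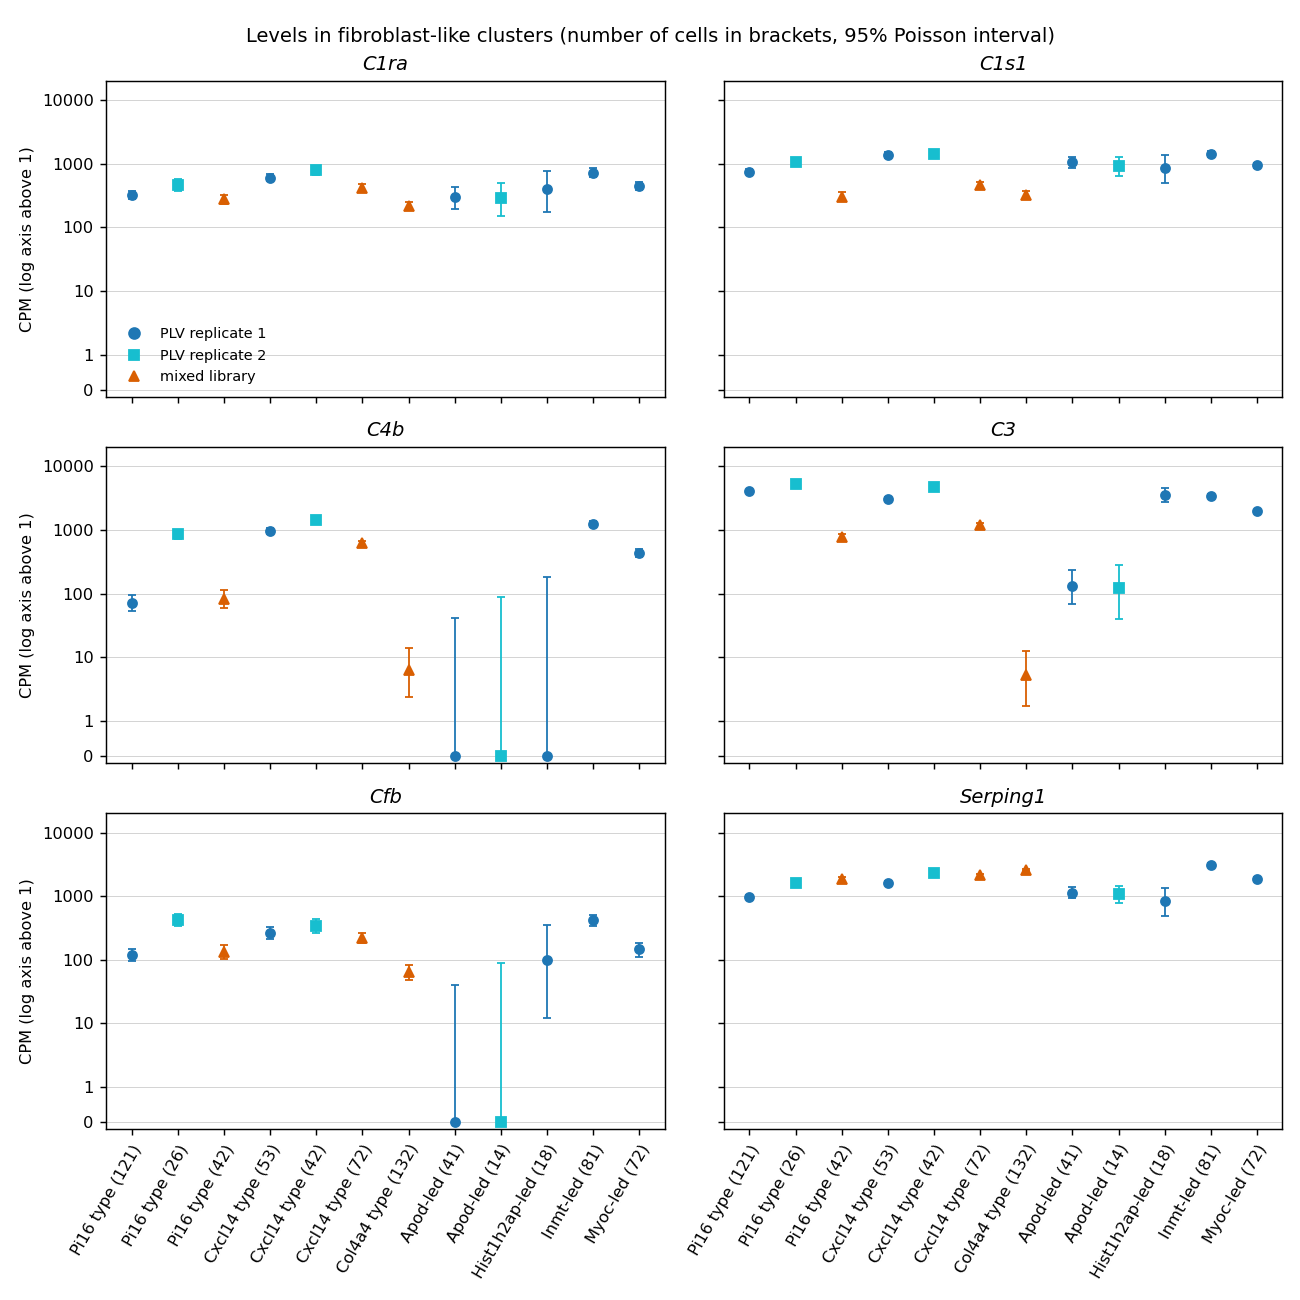
Levels of 6 members in the fibroblast-like clusters of the finer clustering (x axis, with cell numbers), in CPM on a y axis that is logarithmic above 1; each point is 1 cluster of 1 library with its 95% Poisson interval. C1ra, C1s1 and Serping1 stand at 216 CPM or more in each of these clusters, whereas C3 drops to 5.31 CPM in the Col4a4 and Itgbl1 type and C4b to 0 in the Apod-led clusters.

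Among muscle-like cells, Serping1 differed between the Hmcn2-led and Pln-led kinds. Clusters led by Hmcn2 and Enpp2 held 139, 57 and 201 cells and clusters led by Pln and Sorbs2 held 283, 53 and 43. Hmcn2-led cells held 426, 385 and 491 CPM of Serping1 and Pln-led cells 231, 215 and 167 CPM, with no overlap. The log2 difference was 0.91 (SE 0.16, adjusted p = 7.16e-05), and 1 of 3 members tested passed where 32% of 7078 genes were called in either direction. The count of members is near that share and is no result about the members as a set. C1s1 stood at 459, 434 and 269 CPM against 358, 263 and 183 CPM, higher in each library (log2 difference 0.37, SE 0.15, adjusted p = 0.0654). It passed when cells were limited to 10% mitochondrial UMIs (0.41, adjusted p = 0.0369). A P2rx1-led cluster of 74 cells in the mixed library held 201 CPM of Serping1 and 174 CPM of C1s1, and no C3, C4b or Cfb UMI.

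The PLV libraries and the mixed library were then compared within each class, with 2 libraries against 1, so that the lone mixed library was assumed to vary like the PLV libraries. In fibroblast-like cells 1 of 6 tested members passed, where 11.8% of 10509 genes were called in either direction. C3 was higher in the PLV libraries by 2.24 on the log2 scale (SE 0.44, adjusted p = 0.00135), with 3149 and 4228 CPM against 539 CPM. With each cell thinned to 1500 UMIs, C3 was detected in 81.7%, 64.3% and 23.6% of fibroblast-like cells and in 0.676%, 0% and 0% of lymphatic endothelial-like cells. Without thinning the shares were 82.1%, 66.7% and 33.7% against 2.08%, 1.41% and 0%, at median depths of 4057, 4225 and 6933 UMIs against 3498, 6894 and 4959. The 132 cells of the Col4a4 and Itgbl1 type, without counterpart in the PLV libraries, were part of the 276 fibroblast-like cells of the mixed library. In comparisons added after seeing the data, C3 within the Pi16 type alone was higher in the PLV libraries by 2.00 (SE 0.46, adjusted p = 0.0043), where 8.66% of 7227 genes were called. Within the Cxcl14 and Scara5 type the difference was 1.30 (SE 0.61, adjusted p = 0.301), where 3.33% of 5673 genes were called.

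C1s1 and C4b had like directions without passing: log2 differences of 1.07 (SE 0.37, adjusted p = 0.0619) and 1.25 (SE 0.42, adjusted p = 0.0547). C1s1 passed under 3 alternatives and C4b under 4, among them cells with at least 1000 UMIs, where 4 members passed and the mixed library kept 177 fibroblast-like cells in place of 276. Serping1 had the opposite sign, at -0.91 (SE 0.37, adjusted p = 0.113), and passed with no filter on low counts (-0.95, adjusted p = 0.0437). Genes known to rise during tissue digestion, 9 in all and none at 0, summed to 8916, 11399 and 7838 CPM in the fibroblast-like cells. The 7 fibroblast markers summed to 43464, 36892 and 114948 CPM. The part of digestion, vessel and cluster makeup in the C3 difference was not tested.

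In muscle-like cells C3 was lower in the PLV libraries (log2 difference -1.95, SE 0.60, adjusted p = 0.0258), and 1 of 5 tested members passed, where 14.6% of 10803 genes were called. This call rested on few molecules. C3 passed the filter on low counts through the mixed library alone. The direction of the call was thus fixed by the filter, and the call is a description. C3 stood at 4.10, 2.55 and 12.2 CPM, and 29 of the 30 C3 UMIs that mixed muscle-like cells held lay in 3 of the 43 Pln-led cells, 12 of them in 1 cell. Hmcn2-led cells of the mixed library had 1 C3 UMI in 201 cells. The call was lost when predicted doublets were kept (adjusted p = 0.0985), and DESeq2 gave C3 no adjusted p. In blood endothelial-like cells 0 of 4 tested members passed (3.09% of 10209 genes called by edgeR; 0 members with an unadjusted p under 0.05; 0 with DESeq2), and in lymphatic endothelial-like cells 0 of 4 passed (0.133% of 9009 genes; 0 members with an unadjusted p under 0.05; 0 with DESeq2).

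Free RNA in the suspension can give UMIs in cells that do not make a transcript. The mixed library, deposited with all its barcodes, allowed the make-up of this free RNA to be read. Its 185412 droplets with fewer than 50 gene UMIs held 1000645 UMIs in all. Serping1 stood there at 279 CPM (247 to 313), C1qb at 81.9, C1qa at 76.95, C1s1 at 75.0, C3 at 64.0, C1ra at 36.0, C1qc at 33.0, C4b at 32.0 and Cfb at 19.0 CPM. In droplets with fewer than 20 gene UMIs Cfb, with 9 UMIs, stood at 11.05 CPM (5.05 to 20.97), which would raise each ratio for Cfb below by over 1.5 times. All 9 genes were thus present in free RNA. A droplet level is a share of that RNA, and the amount that enters cells was not measured. Against their droplet levels, C1qa and C1qb stood at 0% in fibroblast-like, muscle-like, pericyte-like, lymphatic endothelial-like and Schwann-like cells of the mixed library. In its blood endothelial-like cells C1qa and C1qb stood at 0.82% and 0.77%. Of these droplet levels, C3 reached 2.98% in blood endothelial-like cells, 0% in lymphatic endothelial-like cells, 80.4% in macrophage-like cells and 145% in Pln-led cells of the same library. Serping1 reached 127% in muscle-like cells and 0% in macrophage-like cells, where C1s1 was also at 0%. Among the muscle-like kinds Serping1 reached 176% in Hmcn2-led, 59.8% in Pln-led and 72% in P2rx1-led cells.

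The ratio to the droplet level differed between genes in the endothelium. In blood endothelial-like cells of the mixed library Cfb was at 261% of its droplet level, C1ra at 98.8%, C1s1 at 88.9%, Serping1 at 42.1%, C4b at 7.94% and C3 at 2.98%. In lymphatic endothelial-like cells Cfb was at 305%, Serping1 at 58.4% and C1s1 at 6.44%. After each cell was thinned to 1500 UMIs, Cfb was detected in 14.9%, 10.8% and 12.5% of lymphatic endothelial-like cells and in 0%, 0.98% and 0.649% of muscle-like cells. Without thinning the shares were 39.6%, 50.7% and 39.6% against 0.948%, 2.73% and 1.26%. In PLV replicate 1, whose deposited barcodes included 648 red cell barcodes, Cfb stood in these at 65.8 CPM (26.5 to 136), against 49.3 CPM in blood and 77.4 CPM in lymphatic endothelial-like cells of that library. C3 and Serping1 each stood there at 414 CPM (301 to 556) and C1s1 at 150.5 CPM (86.0 to 244). In 176 red cell barcodes of PLV replicate 2, C3 stood at 22.1 CPM (0.559 to 123), and Cfb, Serping1 and C1s1 had 0 UMIs, which allows up to 81.5 CPM by the Poisson interval. In 342 red cell barcodes of the mixed library, Serping1 and C1s1 each stood at 25.3 CPM (0.641 to 141), and C3 and Cfb had 0 UMIs, which allows up to 93.3 CPM. The 50-UMI droplets and the red cell barcodes are different measures, and the part of free RNA in endothelial Cfb was not tested.

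**Figure D4:**
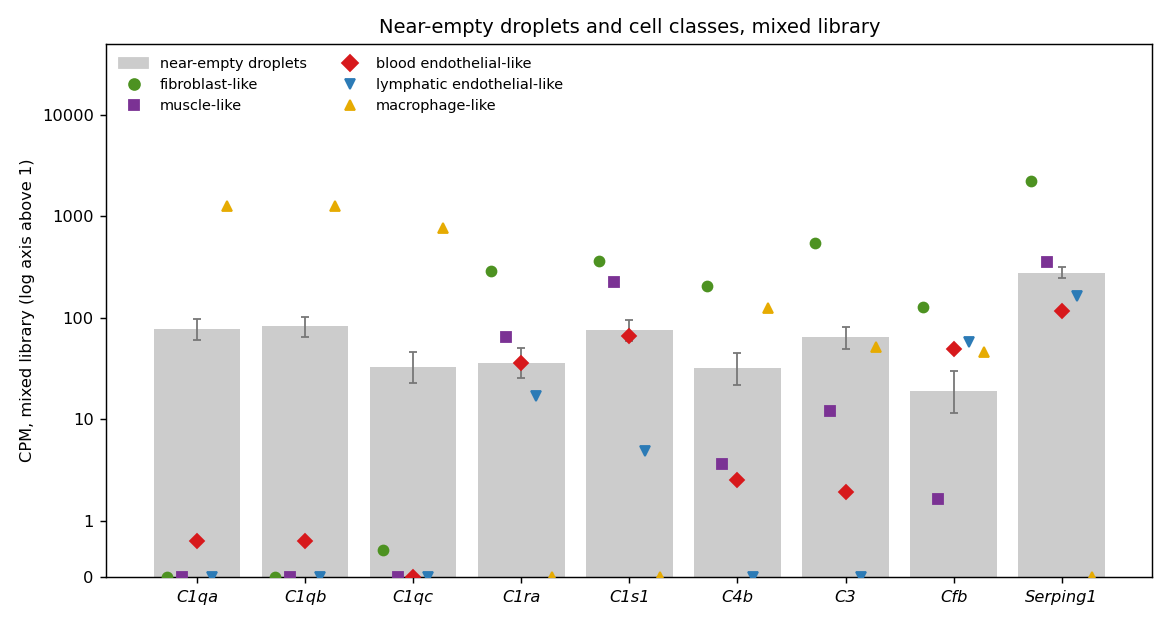
Level of the 9 genes in mixed-library droplets holding under 50 gene UMIs (grey bars, 95% Poisson interval) and in 5 cell classes of that library (points), in CPM on a y axis that is logarithmic above 1. Endothelial cells lie above the bar for Cfb and far below it for C3, and macrophage-like cells lie above it for the C1q chains.

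Other genes of the pathway, a list of 49, were followed in the same fits. In fibroblast-like against muscle-like cells 15 were tested, 7 were higher and 3 lower, where 16.6% of all genes were called higher and 15.7% lower. C7, Cd93 and Colec11, with 0, 4 and 5 UMIs in the class where they were lower, passed the filter through the other class alone. Cd55 and Csmd1, with 15 and 18 UMIs over all muscle-like cells, would not have passed on those cells either. The calls of these genes and the counts of 7 and 3 are descriptions. Cd59a had 41 UMIs over all fibroblast-like cells. Among those higher were C2, the protease that pairs with C4 (2.19), the regulators Cd55 (6.14), Thbd (3.21) and Csmd1 (1.64), the collectin Colec12 (3.09) and the terminal component C7. Lower were Cd59a, which blocks the membrane attack complex (-4.52), Cd93 (-5.17) and Colec11 (-4.88). C7 rested on the mixed library, with 400.3 CPM there against 7.08 and 35.5 CPM in the PLV libraries, and no C7 UMI was seen in muscle-like cells of any library. The fibroblast-like level was at least 361-fold higher, taking 3 UMIs over the group as the floor. The values in brackets here and below are log2 differences that passed.

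In macrophage-like against fibroblast-like cells 14 of the list were tested, 7 were higher and 4 lower, where 15.7% of all genes were called higher and 19.7% lower. All 7 higher genes, with 0 to 8 UMIs each in fibroblast-like cells, passed the filter through the macrophage-like cells alone, so that their count was fixed by it and is a description. The neutrophil, B-cell and T-cell markers given above for the macrophage-like clusters of PLV replicate 2 and the mixed library bear on these levels too, and their part was not tested. Higher were the anaphylatoxin receptors C3ar1 (320.3, 59.7 and 126 CPM) and C5ar1 (446, 78.0 and 74.2 CPM), of which fibroblast-like cells held 1 and 0 UMIs. Itgam (389.9, 165 and 279.8 CPM) and Itgb2 (167, 247.9 and 126 CPM), which pair as a receptor for C3 fragments, likewise had 1 and 0 UMIs in fibroblast-like cells. Also higher were properdin, Cfp (7.45), which steadies the alternative pathway enzyme, Cd93 (5.94) and the ficolin Fcna, at least 134-fold above a floor of 3 UMIs. Lower were C2 (-4.17), Cd55 (-3.05), Thbd (-4.26) and Colec12 (-1.44). C2 and Thbd, with 11 and 7 UMIs over all macrophage-like cells, passed the filter through the fibroblast-like cells alone. Their calls and the count of 4 lower are descriptions too. Cd55 and Colec12 had 19 and 29 UMIs in macrophage-like cells.

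Against blood endothelial-like cells, lymphatic endothelial-like cells were higher for 6 and lower for 4 of 14 tested, where 12.8% of all genes were called higher and 14% lower. C5ar2, Susd4, Cfd and Vtn, with 2, 9, 3 and 19 UMIs in the class where they were lower, passed the filter through the other class alone. Their calls and the counts of 6 and 4 are descriptions. Colec12 had 42 UMIs over all blood endothelial-like cells. Among those higher were Cd55, which speeds the decay of C3-cleaving enzymes (2.02), Susd4 (3.23), Thbd (0.84), Colec12 (3.55) and the receptor C5ar2, with 190 UMIs against 2 and a pooled ratio of 87.9 (95% counting interval 24.0 to 731). Lower were Cd93 (-2.06), Vtn (-3.11), Clu (-0.46) and Cfd, with 3 UMIs against 125 and a pooled ratio of 45.0 (15.1 to 221).

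Hmcn2-led muscle-like cells were higher than Pln-led cells for 7 of 10 tested genes of the list and lower for 1, where 15.6% of all genes were called higher and 16.4% lower. All of these but Cd59a had 7 or fewer UMIs in the kind where they were lower and passed the filter through the other kind alone, so their calls are descriptions. Among those higher were C2 (6.00), Vtn (6.57), Cd93 (4.62) and Cd59a (1.02). Thbd and Colec11 were also higher, with 86 and 197 UMIs against 3 and 1 in Pln-led cells, and Clu was lower, with 2 UMIs against 58. Between PLV and mixed libraries, fibroblast-like cells of the PLV libraries were higher for Cd55 (3.94), Masp1 (2.00) and Vtn (1.74) and lower for C7 (-5.24) and C2 (-1.34), of 15 tested, where 4.06% of all genes were called higher and 7.73% lower. In muscle-like cells Clu was higher (1.59) and Cd59a, Cd59b, Thbd, Colec11 and Colec12 were lower, of 15 tested, where 6.95% of all genes were called higher and 7.66% lower. Hmcn2-led cells were 139 of 422, 57 of 110 and 201 of 318 muscle-like cells, and Clu, Cd59a, Thbd and Colec11 also differed between Hmcn2-led and Pln-led cells. The part of that makeup was not tested. Against blood endothelial-like cells fibroblast-like cells were higher for 4 and lower for 4 of 14 tested (17.1% and 15.7% of all genes). C7, with 0 UMIs in blood endothelial-like cells, and Cd93 and Cfd, with 4 and 5 in fibroblast-like cells, passed the filter through the other class alone. C2, Colec12, Cd59a and Clu had 39, 42, 41 and 50 UMIs in the class where they were lower. These counts of calls are therefore descriptions. Against lymphatic endothelial-like cells, fibroblast-like cells were higher for 2 and lower for 8 of 14 (17.6% and 14.7% of all genes). C5ar2, Cd93, Colec11 and Susd4 had 0, 4, 5 and 22 UMIs in fibroblast-like cells, and Vtn had 19 in lymphatic endothelial-like cells. They passed the filter through the other class alone, so these counts are descriptions too. C2, Cd59a and Clu had 35, 41 and 50 UMIs in the class where they were lower.

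Likeness was read as Pearson's r of log2(CPM + 10) over 26 sums of at least 20 cells, which share libraries and depth, among 11147 genes. The genes most like C3 were Ifi205 (0.96), Inmt (0.95) and Pdgfra (0.94). Those most like C1qa were C1qc (0.98), C1qb (0.98) and Aif1 (0.97), and those most like Serping1 were Ndn (0.96), Scarf2 (0.95) and C1ra (0.95). With the 41 neutrophil-like cells counted as macrophage-like (25 sums), an alternative chosen after seeing the data, Smoc2 took the place of Pdgfra, and Il1b and Itgam the places of C1qb and Aif1. Among the members C1qb and C1qc had r = 0.99, C1ra and C1s1 r = 0.90, and C4b and C3 r = 0.60.

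Some members have near-identical copies that a 3′ read may not separate. In the last 500 bases of GENCODE vM21 transcripts, 38.1% of the C4b words of 50 bases also occur in C4a, 19.1% of the C1ra words in C1rb and 22.9% of the C1s1 words in C1s2. Of the Cfb words, 64.2% occur in Gm20547, a gene model absent from the features lists. Counts of these 4 genes are uncertain for reads that fall on shared words. How large a part of the counts that is was not measured. Over all barcodes C4a had 4, 3 and 1 UMIs against 1061, 524 and 569 for C4b. C1rb had 3, 0 and 1 and C1s2 had 9, 2 and 3. The C1q chains, C3 and Serping1 shared no such word with another gene.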

How the data were processed

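The deposited values were raw UMI counts per gene and barcode, made by the authors with Cell Ranger 6.1.2 (PLV files) and Cell Ranger 4 (mixed file), per the file headers; the build was GRCm38, and Cell Ranger and Seurat were named, per the submitters' processing notes. The PLV matrices held 2649 and 730 filtered barcodes, the mixed matrix 896360. Gene identifiers, symbols and barcodes were the only other content of the deposited files used. The hashtag counts of the mixed library were not used here.

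Kept barcodes had a minimum of 500 UMIs and 300 genes and a maximum of 15% mitochondrial and 20% haemoglobin UMIs, and 10, 3 and 3 doublets predicted by scrublet were left out; this marks few cells, and undetected doublets remain possible. Each library was clustered alone (scanpy 1.11.5; 2000 variable genes, 50 components, 15 neighbours, leidenalg 0.10.2; resolution 1 for classes, 2 for macrophage-like cells and for types). A cluster was named from at least 3 markers raised 2-fold (20 CPM added), its 10 leading genes favouring the same class; the Hmcn2-led, Pln-led and P2rx1-led kinds were defined after clusters were seen, because the muscle marker types did not separate in every library. UMIs were summed per library and class (at least 20 cells, 10 for macrophages) and tested with edgeR 4.0.16 (TMM, filterByExpr, adjusted p under 0.05); DESeq2 1.42.0 and other settings were alternatives. The test was tested on simulated data. The 9 genes and all lists were chosen with earlier results of these data known. Named genes were the 9 members, listed pathway genes with at least 10 UMIs in a sum that passed, and the 3 genes most like C3, C1qa and Serping1. Not every listed pathway gene that passed is reported here.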

Additional observations from a re-analysis of the deposited data

Results flagged for a closer look

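The C3 difference between PLV and mixed libraries went opposite ways in fibroblast-like and muscle-like cells. As a log2 difference, the interaction of class and library group was 4.11 (SE 0.66, adjusted p = 7.15e-08 by edgeR), and 616 of 10313 genes were called. It was added after the data were seen and rests on a lone mixed library. In the muscle-like comparison C3 passed the filter through the mixed library alone, so the direction of that call was fixed by it. C3 stood at 3149 and 4228 CPM in PLV and 539 CPM in mixed fibroblast-like cells, and at 4.10 and 2.55 CPM in PLV and 12.2 CPM in mixed muscle-like cells, where 29 of 30 UMIs came from 3 cells. The muscle-like difference itself did not pass with predicted doublets kept (adjusted p = 0.0985), and DESeq2 gave it no adjusted p. With blood endothelial-like cells in place of muscle-like cells the C3 interaction was 2.09 (SE 1.01). With lymphatic endothelial-like cells it was -2.22 (SE 3.21), of opposite sign, and C3 passed in neither. No other member passed in any of these interactions.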

How the results depend on the processing

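Of 586 single-gene results under alternatives, 558 kept their direction and their side of the threshold, 11 lost it, 16 gained it and 1 turned sign: C3 between the Pi16 and the Cxcl14 and Scara5 types, 0.13 without the replicate block against -0.04 with it, called in neither. Counts of members called changed as follows. Without the replicate block, lymphatic against blood endothelial-like cells gave 1 in place of 3, as did DESeq2; leaving out a library gave 1 to 3 there, with 1 without PLV replicate 2. The block is the library, not a pairing by replicate number, and it changed no other count of members by over 1.5 times. The Pi16 against the Cxcl14 and Scara5 type gave 1 in place of 0 with DESeq2, with no filter on low counts and at resolution 2. Hmcn2-led against Pln-led cells gave 2 in place of 1 with no filter and with at most 10% mitochondrial UMIs. PLV against mixed fibroblast-like cells gave 4 with no filter, 4 with at least 1000 UMIs, 2 with predicted doublets kept and 3 at resolution 2, in place of 1; muscle-like cells gave 0 with DESeq2 and with doublets kept. The cause of these changes was not tested. Leaving out a library of PLV against mixed left no residual degrees of freedom and was not run. For the Pi16 comparison, runs with fewer than 2 libraries holding both types gave no value, and the marker-based Ano1 against Pln comparison was not run. Of the 63 mean levels, 30 were at 10 CPM or more; 15 of 126 alternative levels moved by over 1 SD.

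Macrophage-like and pericyte-like sums hold few cells. Taking 3 UMIs as the limit that a count of 0 allows, 0 UMIs in macrophage-like cells of PLV replicate 1 allow up to 20.9 CPM (25.7 CPM by the upper end of the 95% Poisson interval).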
